A study of Mus musculus with 2 samples.

Results

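The genes described here are 37 collagens and extracellular matrix glycoproteins, chosen by name from the 32285 genes of the deposited matrix. They comprise 7 fibrillar collagens, 8 network and other collagens, 6 laminin chains, 7 glycoproteins, 5 proteoglycans, 2 lysyl oxidases and 2 surface markers of activated fibroblasts. They were followed in single cells of mouse mammary tumours grown from 4T1 cells, a BALB/c mammary carcinoma line that stands for triple-negative disease. 1 library came from tumours of 4T1 cells given a control sgRNA (labelled genotype WT), and 1 from tumours of 4T1 cells given an sgRNA against Kindlin-2 (K2-KO). Female mice received either kind of cell in the mammary fat pads, and the tumours were taken at 150 mm3, digested for 45 min with collagenase and DNase, and sorted as live cells by mCherry. The labels do not say how many tumours or mice went into a library, whether the knockout was 1 clone, or in what proportion the mCherry fractions were loaded. The knockout concerns the injected cells; the stroma came from the host mice.

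The extracellular matrix of a tumour has an interstitial part and a basement membrane. Fibrillar collagens of types I, III and V form the cables of the interstitial part, type VI collagen forms beaded filaments beside them, and fibroblasts are the usual source of both. Basement membranes are sheets of type IV collagen, laminins and the proteoglycan perlecan, laid down by epithelial and endothelial cells. Cells hold on to these proteins through integrins. Fermt2 encodes Kindlin-2, which binds the inner tails of integrins and helps to switch them on.

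The control library held 214163620 UMIs (unique molecular identifiers, 1 per captured RNA molecule) over 8038 barcodes and the K2-KO library 180774106 over 7250. After filters and the removal of called doublets, 7530 control and 6761 K2-KO cells were analysed, and 13 barcode sequences occurred in both. Tumour cells were those with at least 5 UMIs of Epcam, Krt8 and Krt18 together per 10000 and no UMI of Ptprc, the pan-leukocyte gene. There were 3823 in the control and 2431 in the K2-KO library, with median depths of 34991 and 38668 UMIs. Stromal cells were taken by 1 gene each: 94 and 88 Col1a1 cells (fibroblasts and related cells), 56 and 30 Pecam1 cells (endothelium), and 1364 and 1047 C1qa cells (macrophages). Summed markers of the epithelial list stood at 5080 and 4510 CPM in tumour cells (CPM is a gene's summed UMIs over all UMIs of the class, scaled to 1000000). That list includes the gate genes Epcam, Krt8 and Krt18, so a high value was set by the selection and does not test the name. Some cells with gland markers passed this gate as well. The endothelial and macrophage lists leave out the gate genes Pecam1 and C1qa, and they bore out those names. Endothelial markers stood at 5247 and 5251 CPM in Pecam1 cells, and macrophage markers at 16220 and 15174 CPM in C1qa cells. Pecam1 cells also held markers of other cells, unequally between the libraries. Neutrophil markers stood there at 628 and 51.7 CPM, macrophage markers at 238 and 359 CPM and the pericyte gene Rgs5 at 76.0 and 0 CPM. Col1a1 cells held fibroblast markers at 3576 and 3721 CPM, but also pericyte and smooth muscle markers at 4784 and 2721. The targeted gene, Fermt2, stood at 41.9 CPM in control and 17.3 CPM in K2-KO tumour cells, and at 481 and 316 CPM in Col1a1 cells. Each group is 1 library, so there is no test; every interval below is an exact 95% interval that covers counting error only, and every difference is between these libraries, not between conditions.

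Tumour cells and Col1a1 cells made different sets of matrix transcripts. In tumour cells Fn1, which encodes fibronectin, was the leading member, with 49.3% of all member UMIs in the control and 43.2% in the K2-KO library. In Col1a1 cells the first places went to Sparc, a collagen-binding glycoprotein of the fibroblast matrix, with 17.3% and 15.6%, and to the fibrillar collagen Col3a1, which stood first in the K2-KO library. The 37 genes together made up 3938 CPM of control and 2908 CPM of K2-KO tumour RNA, against 59405 and 59157 CPM in Col1a1 cells. Levels of different genes are set side by side as UMI counts, with no scaling by length. How capture differs between genes was not tested.

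Set against the Col1a1 cells of the same library, the members spread over several orders of magnitude. 13 of 37 stood in tumour cells at more than 5% of their Col1a1-cell level in both libraries, 15 of 37 stood at under 0.5% in both, and 9 lay between; these limits were set after the values were seen. The upper set held Col4a1, Col4a2, Col18a1, Hspg2 and the laminin chains Lama3, Lama5, Lamb1, Lamb3 and Lamc1, which are basement membrane genes, together with Fn1, Col6a1, Col8a1 and Mgp. The laminin chains typical of epithelium were nearly absent from Col1a1 cells. Lama5 was 40.9-fold higher in tumour cells in the control and 18.1-fold in the K2-KO library, from 10 and 24 UMIs in Col1a1 cells. Lamb3 was 43.3-fold and 20.9-fold higher, from 2 and 6 UMIs. Col18a1, the basement membrane collagen whose end fragment is endostatin, stood at 258% and 247% of the Col1a1-cell level. The lower set held Col1a1, Col1a2, Col3a1, Col5a2, Col5a3, Col6a3, Postn, Thbs2, Fbn1, Lox, Loxl2, Lum, Bgn, Vcan and Lrrc15. Closest to the lower limit were Vcan on the inside, at 0.26% and 0.44%, and Col12a1, at 0.499% and 0.528%, and Dcn, at 0.617% and 0.491%, on the outside. Closest to the upper limit were Fap, at 3.54% and 5.23%, and Col6a1, at 14.2% and 7.76%.

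**Figure D1:**
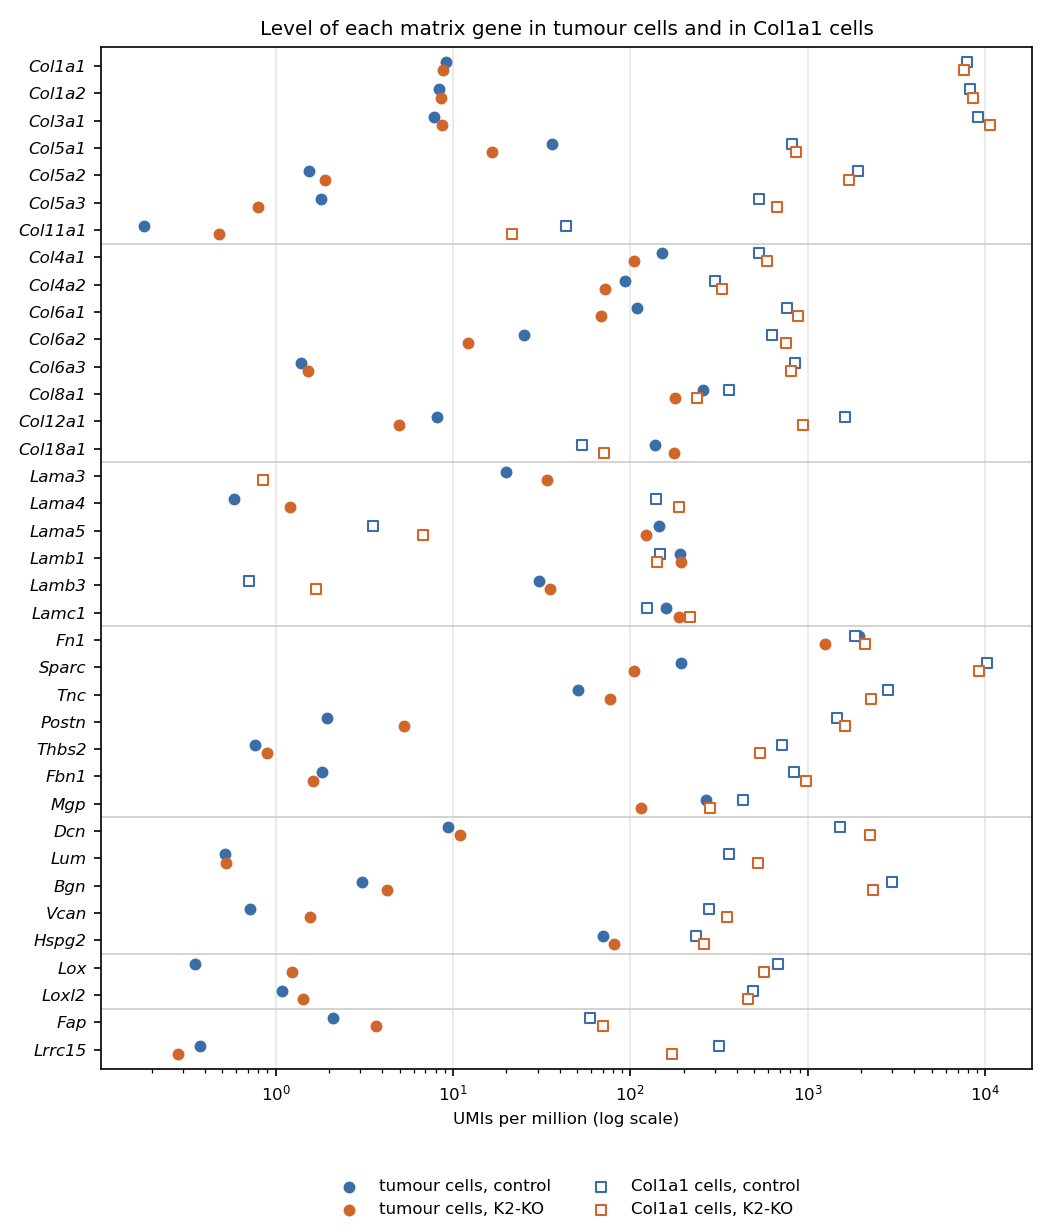
Level of each of the 37 genes in CPM (log axis) in tumour cells (filled circles) and Col1a1 cells (open squares) of the control (blue) and K2-KO (orange) library; horizontal lines divide the roles, and a gene with no UMI has no symbol (Lama3, control Col1a1 cells). Each symbol is 1 library, with no error bar. Lama3, Lama5, Lamb3 and Col18a1 lie higher in tumour cells, Fn1, Lamb1 and Lamc1 lie close together, and Col1a1, Col1a2 and Col3a1 lie near 10 in tumour cells and near 10000 in Col1a1 cells.

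The little RNA for collagens of types I and III found in tumour cells sat mostly in a handful of barcodes. This did not hold for the fibrillar chain Col5a1, whose top cell held 0.94% and 2.53% of its UMIs. Col1a1, the main chain of type I collagen, stood at 9.12 CPM in control and 8.75 CPM in K2-KO tumour cells, with 56.9% and 40.3% of the UMIs in 1 cell. Cells with 10 or more UMIs of Col1a1, Col1a2 and Col3a1 together numbered 8 in each library, of 3823 and 2431 tumour cells, and held 83.6% and 82.1% of the UMIs of these genes. These 8 cells had a median epithelial sum of 14.5 per 10000 in the control and 16.3 in the K2-KO library, against 38.9 and 32.8 in the other tumour cells. Fibroblast markers stood at 1780 and 1163 CPM in them, against 19.2 and 15.7 CPM in the rest. Whether these barcodes held a tumour cell together with a fibroblast was not tested.

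Without those cells, which were set aside after the data had been seen, the collagens of types I and III were at the level of blood cells. Col1a1 stood at 1.73 and 1.54 CPM in the remaining tumour cells, at 2.23 and 2.74 CPM in C1qa cells and at 2.07 and 2.99 CPM in T cells taken by Cd3e, with the collagen-rich cells of those classes set aside in the same way. Col3a1 stood at 1.25 and 1.74 CPM in tumour cells and at 2.30 and 3.24 CPM in Cd3e cells. In tumour cells these values were no higher than in these leukocytes. Whether they are background was not tested, because the cut was made on these same genes in every class. Before it, 4 control and 1 K2-KO Cd3e cells held 99.5% and 97.9% of the Col1a1, Col1a2 and Col3a1 UMIs of that class. Lox, the lysyl oxidase that crosslinks collagen, dropped from 53 and 136 UMIs to 10 and 12. Lum, a small proteoglycan of collagen fibrils, kept 25 and 18 UMIs, and Col5a2 45 and 33. As a percent of the Col1a1-cell level, some members given above as lying between the limits fell under 0.5% in both libraries. These were Col12a1 at 0.446% and 0.398%, Dcn at 0.496% and 0.435%, and Lama4 at 0.329% and 0.451%. Broadly made members hardly moved: Fn1 stood at 1940 and 1256 CPM without these cells and at 1942 and 1257 CPM with them.

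**Figure D2:**
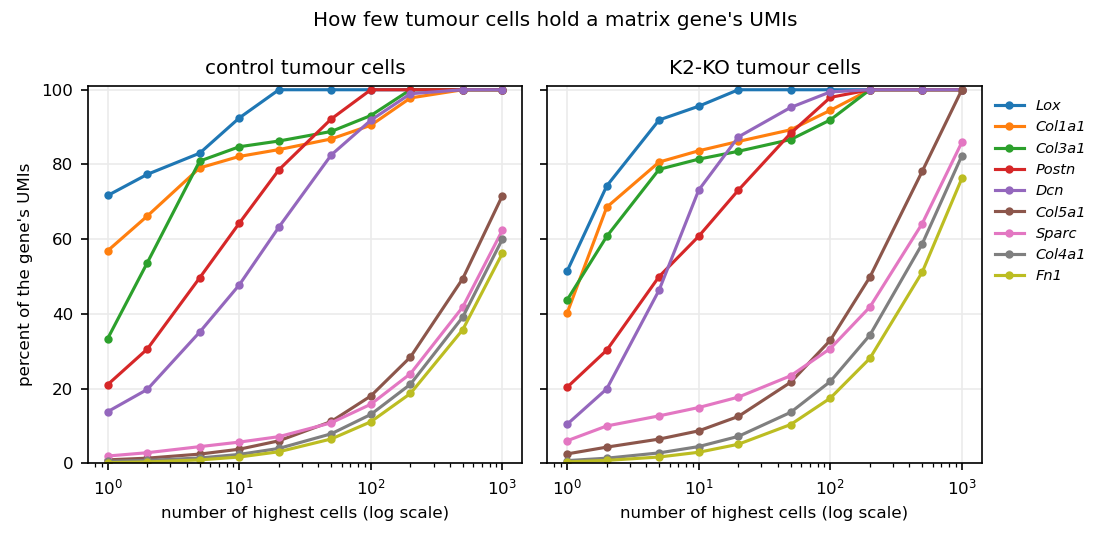
Percent of a gene's UMIs in tumour cells (vertical axis) held by its 1 to 1000 highest cells (horizontal log axis) in the control (left) and K2-KO (right) library, for 9 members. Lox, Col1a1 and Col3a1 reach about 80% within 5 cells in both libraries, while the 100 highest cells hold 11.1% of Fn1 in the control and 17.5% in the K2-KO library.

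Some chains that join into 1 protein were not made together in tumour cells. Type V collagen usually joins chains of Col5a1 and Col5a2, and type VI collagen needs Col6a1, Col6a2 and Col6a3. In Col1a1 cells there were 0.42 and 0.50 Col5a1 UMIs per Col5a2 UMI. In tumour cells without the collagen-rich barcodes there were 119 (5340 to 45) and 52.1 (1719 to 33). For type VI collagen, Col1a1 cells held about as many Col6a1 as Col6a3 UMIs, and the same tumour cells held 157 (16155 to 103) and 80.1 (7373 to 92). Col6a2 was present, at 4.35 and 5.97 Col6a1 UMIs per Col6a2 UMI in these tumour cells against 1.22 and 1.16 in Col1a1 cells. Tumour cells thus carried RNA for Col5a1, Col6a1 and Col6a2 with little for Col5a2 and Col6a3. The main chains of type IV collagen differed less in ratio between these classes: Col4a1 to Col4a2 stood at 1.61 and 1.45 in tumour cells, 1.78 and 1.79 in Col1a1 cells and 1.48 and 1.40 in Pecam1 cells.

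Between the libraries, the tumour-cell members moved in both directions. Of 37 members, all of which had at least 20 UMIs in tumour cells, 8 were at least 1.5-fold higher and 8 at least 1.5-fold lower in the K2-KO library. Over all 17445 genes with as many UMIs, 19.0% were that much higher and 6.81% that much lower. The members' median log2 ratio, 0.13, was close to that of all genes, 0.12. Without the collagen-rich cells the counts were 8 and 9 and the median 0.02. The counts depended on the gate and the weighting: 16 members were that much higher with the epithelial gate at 10 per 10000, and 13 higher and 3 lower with ratios averaged over tumour-cell clusters. Network and other collagens had 3 of 8 lower and none higher, with a median of -0.52, while laminins had 2 of 6 higher and none lower, with a median of 0.22.

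**Figure D3:**
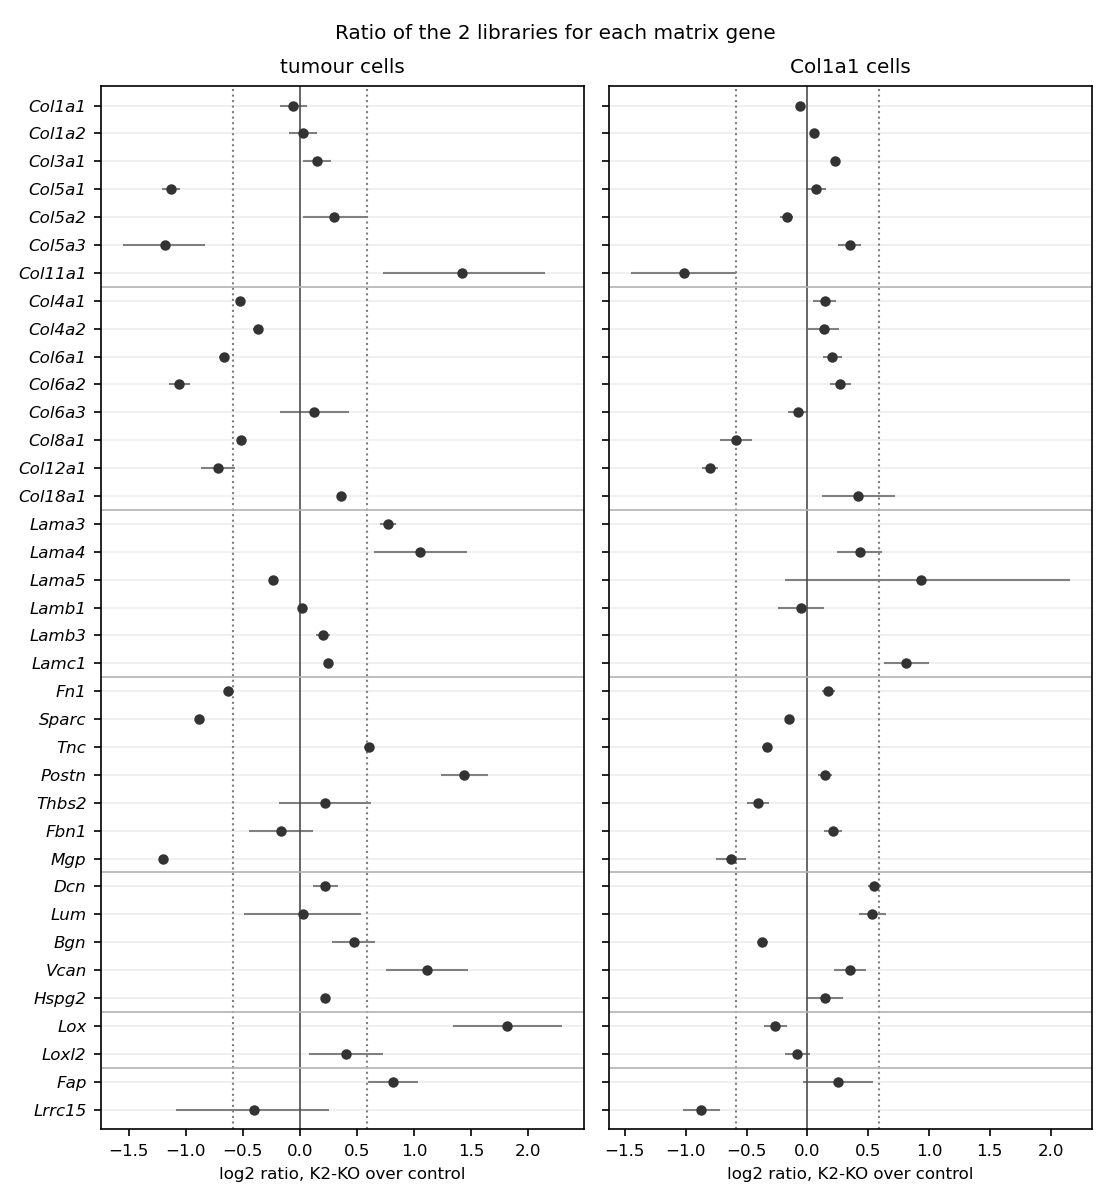
Log2 ratio of CPM, K2-KO over control, for each gene in tumour cells (left) and Col1a1 cells (right); bars are exact 95% intervals of counting error, dotted lines mark 1.5-fold, and genes under 20 UMIs in a class are not drawn. In tumour cells Col5a1, Mgp, Col6a2 and Sparc lie to the left and Tnc, Lama3 and Vcan to the right; in Col1a1 cells Col11a1, Lrrc15 and Col12a1 lie to the left and Lamc1 to the right.

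The tumour cells fell into 9 clusters by genes other than the members, and the libraries filled them very differently. Cluster 1, led by Ccl2, F13a1 and Saa3 among others, held 37.5% of control and 3.25% of K2-KO tumour cells, and cluster 2, led by Ifit3 and Plcl1 among others, held 4.11% and 55.5%. Ratios within clusters are therefore given beside the pooled ones, over the 7 clusters with at least 20 cells in each library and without the collagen-rich cells. Among these is cluster 5, with 209 and 187 cells, led by the leukocyte genes Ighg2b, Igkc, Lyz2 and C1qa among others. Cluster 7, led by gland genes, is counted as well. Clusters are counted by the sign of the ratio, whatever its interval. They are parts of the same libraries and not replicates.

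Col5a1, the type V chain, stood at 36.2 CPM in the control and 16.5 CPM in the K2-KO library, a log2 ratio of -1.13 (-1.21 to -1.06). It was lower in 7 of 7 clusters, by -1.80 to -0.13, but in clusters 3, 4 and 7 the interval spanned 0. With the collagen-rich cells kept it was lower in 6 of 7, the exception being cluster 4 at 0.62. Col5a1 was at least 1.5-fold lower in tumour cells under each alternative processing that was run (-1.26 to -0.67). The share of tumour cells with a Col5a1 UMI, after each cell was thinned to 1000 UMIs, was 3.49% and 1.42%, against 0.21% and 0.12% of Cd3e cells. In Col1a1 cells the gene stood at 819 and 861 CPM, a log2 ratio of 0.07 (-0.01 to 0.15).

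Col8a1, a short-chain collagen that forms hexagonal nets, was also lower in 7 of 7 clusters (-1.82 to -0.20). Its level was 257 CPM in control and 179 CPM in K2-KO tumour cells, a log2 ratio of -0.52 (-0.54 to -0.49). It was the one member of this pattern that was lower in Col1a1 cells as well, at 359 and 238 CPM, a log2 ratio of -0.59 (-0.72 to -0.45).

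Tnc went the other way. It encodes tenascin-C, a glycoprotein that loosens adhesion to fibronectin and is raised in wounds and tumours. It stood at 50.5 CPM in control and 76.7 CPM in K2-KO tumour cells, a log2 ratio of 0.60 (0.56 to 0.65). Tnc was higher in 7 of 7 clusters (0.18 to 3.66), with an interval spanning 0 in clusters 3 and 5. The highest value came from cluster 7, led by the gland genes Wfdc18, Ptn and Prlr, where Tnc was at 0.95 CPM in the control. The thinned share of tumour cells with a Tnc UMI was 3.57% and 5.73%. In Col1a1 cells Tnc was lower in the K2-KO library, at 2853 and 2267 CPM.

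Of these 3 genes, 2 were lower and 1 higher in the K2-KO library. Their promoters are shown because, without collagen-rich cells, their ratios kept 1 sign in 7 of 7 tumour-cell clusters, whatever the interval. Col4a1 and Col4a2 did so as well, but the windows before their starts lie inside each other's gene, and they are given by position alone. Each line gives the 250 bases before the RefSeq start on GRCm38.p6, 5′ to 3′ on the gene's strand: Col5a1 at chr2:27886175-27886424 (plus strand), Col8a1 at chr16:57754738-57754987 (minus strand) and Tnc at chr4:64047016-64047265 (minus strand, the outer of 2 RefSeq starts). Capitals mark matches on either strand to GGGCGG (the Sp1 box), TATAAA (the TATA box), CCAAT (the box that NF-Y binds), TGANTCA (the AP-1 site), CATTCC (the TEAD site) and CAGAC (the SMAD box). No motif holds another one whole, and neighbouring matches may share bases.
Col5a1: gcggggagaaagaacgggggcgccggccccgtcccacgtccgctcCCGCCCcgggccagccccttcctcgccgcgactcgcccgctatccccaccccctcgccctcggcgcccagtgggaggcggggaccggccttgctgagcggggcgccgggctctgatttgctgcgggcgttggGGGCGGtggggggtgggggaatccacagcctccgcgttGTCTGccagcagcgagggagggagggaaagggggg
Col8a1: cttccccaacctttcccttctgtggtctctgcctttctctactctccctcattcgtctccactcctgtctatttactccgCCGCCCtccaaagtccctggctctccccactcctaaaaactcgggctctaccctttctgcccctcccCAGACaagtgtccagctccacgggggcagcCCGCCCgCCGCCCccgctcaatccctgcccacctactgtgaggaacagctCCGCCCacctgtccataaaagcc
Tnc: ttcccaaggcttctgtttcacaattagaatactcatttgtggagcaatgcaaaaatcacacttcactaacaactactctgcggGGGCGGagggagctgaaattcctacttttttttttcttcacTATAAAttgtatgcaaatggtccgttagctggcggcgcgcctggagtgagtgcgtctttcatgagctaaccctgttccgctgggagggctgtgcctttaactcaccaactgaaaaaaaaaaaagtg

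The windows of the lowered pair held GGGCGG 2 times (Col5a1) and 4 times (Col8a1) and CAGAC once each. The Tnc window held GGGCGG once and a TATAAA whose first base lies at -126, counted from -1 just before the start. Of all 32851 RefSeq promoter windows of the same length, 32.7% held GGGCGG, 42.2% CAGAC and 12.4% TATAAA. Among the 29 windows found for 24 of the 37 members, 62.1% held GGGCGG and 58.6% CAGAC, 17.2% TATAAA, 31.0% CCAAT, 13.8% CATTCC and 6.90% TGANTCA. The last 3 were in 33.8%, 12.6% and 6.75% of all windows. A match is a description of these letters and not a bound site.

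Col4a1 and Col4a2, which encode the main chains of type IV collagen, lie head to head on chromosome 8 (chr8:11198423-11312826 and chr8:11312805-11449287), with first exons that overlap by 22 bases. They were lower together. Col4a1 stood at 151 CPM in control and 105 CPM in K2-KO tumour cells, a log2 ratio of -0.52 (-0.56 to -0.49), and Col4a2 at 93.8 and 72.4 CPM, a log2 ratio of -0.37 (-0.41 to -0.33). Each was lower in 7 of 7 clusters, by -0.78 to -0.11 and -1.02 to -0.07. In clusters 4 and 7 the intervals of both genes spanned 0. Neither passed 1.5-fold. The minor type IV chains of the X chromosome, Col4a5 and Col4a6, are also a head-to-head pair, with starts 1.31 kb apart, and were higher: 25.2 and 41.8 CPM for Col4a5, 11.0 and 30.5 CPM for Col4a6. Both were higher in 6 of 7 clusters, and the exception was the gland-gene cluster 7. These chains are not members and were named after their values had been seen. In Col1a1 cells Col4a1 and Col4a2 had log2 ratios of 0.14 (0.05 to 0.24) and 0.13 (0.00 to 0.26).

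Of the type VI chains, Col6a1 and Col6a2 were lower in the pooled tumour cells. Col6a1 stood at 109 CPM in the control and 68.4 CPM in the K2-KO library, a log2 ratio of -0.67 (-0.71 to -0.63), and was lower in 5 of 7 clusters. Col6a2, its neighbour on chromosome 10, stood at 25.3 and 12.2 CPM, a log2 ratio of -1.06 (-1.15 to -0.97), and was lower in the 6 clusters where both libraries had UMIs, or 5 of 6 with the collagen-rich cells kept. In Col1a1 cells both were slightly higher, at 0.21 and 0.27. Col6a3, the rare type VI chain of tumour cells, was not lower there. Without the collagen-rich cells it had 103 and 92 UMIs, a log2 ratio of 0.29 (-0.13 to 0.71). Col12a1, a collagen that coats fibrils, stood at 8.12 and 4.94 CPM in tumour cells, a log2 ratio of -0.72 (-0.87 to -0.57).

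Fn1, the most abundant member in tumour cells, was lower when pooled but not within most clusters. Fn1 stood at 1942 CPM in control and 1257 CPM in K2-KO tumour cells, a log2 ratio of -0.63 (-0.64 to -0.62). Within clusters it was higher in 5 of 7, and the mean over clusters was -0.03. In cluster 1 it stood at 2543 and 2689 CPM, in cluster 2 at 1012 and 1434 CPM, and in cluster 0, led by the cell cycle genes Hist1h1b, Ube2c and Cenpf, at 1162 and 742 CPM. The lower pooled level thus stood beside a smaller share of cells in cluster 1, and within most clusters the level was not lower.

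Mgp, which encodes an inhibitor of calcification, was mixed within clusters. Its pooled level was 266 CPM in the control and 115 CPM in the K2-KO library, 2.31-fold lower. By sign it was higher in 5 of 7 clusters, with a mean of 0.06, and in 3 of 7 with the collagen-rich cells kept. In clusters 1, 4 and 5, at 0.006, 0.05 and 0.37, the interval spanned 0. The highest ratio, 1.66, came from cluster 7, with 14 and 119 UMIs. In cluster 3, led by H19 and Lcn2 among others, it was lower, at 409 and 228 CPM. In cluster 0 it was lower as well, at 144 and 59.9 CPM. Sparc stood at 193 and 104 CPM, a log2 ratio of -0.89 (-0.92 to -0.86), or -1.01 without the collagen-rich cells. It was lower in 6 of 7 clusters (-1.05 to 1.12), with cluster 7 as the exception, and in 4 of 7 with the collagen-rich cells kept.

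**Figure D4:**
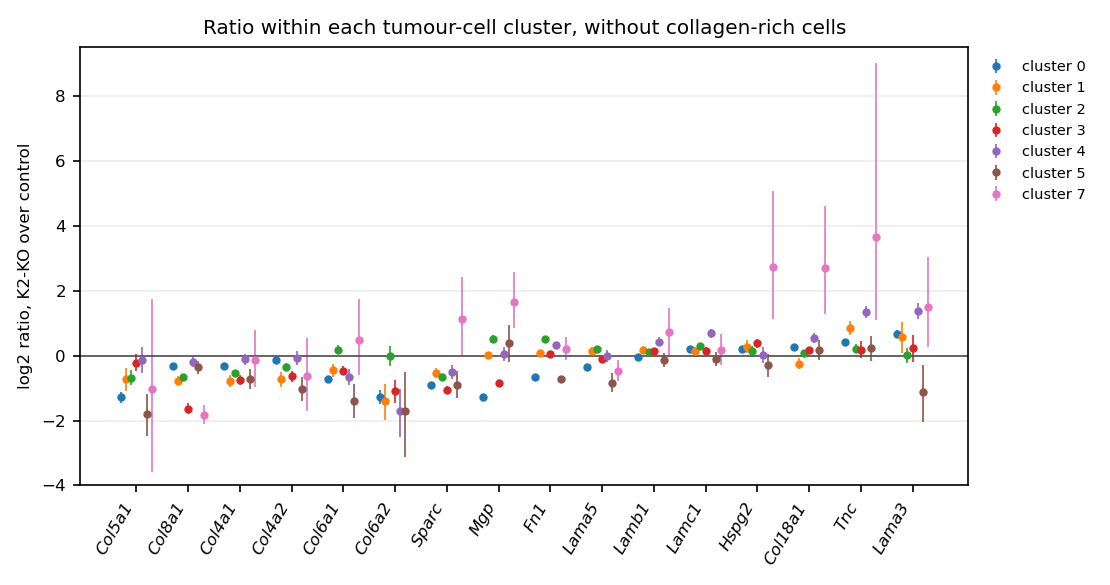
Log2 ratio of CPM, K2-KO over control (vertical axis), of 16 members within each of 7 tumour-cell clusters (colours), without collagen-rich cells; bars are exact 95% intervals of counting error. The points of Col5a1, Col8a1, Col4a1 and Col4a2 lie below 0 in all 7 clusters and those of Tnc above it, while Fn1 and Mgp lie on both sides; cluster 7, with 37 control and 77 K2-KO cells, has the widest bars.

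Pooled over tumour cells, the laminin chains shifted against each other, but not alike in every cluster. Lama5, Lamb1 and Lamc1 build the laminin found in most epithelial basement membranes, and Lama3 and Lamb3 belong to the one that anchors epithelium to the dermis or stroma. Lama5 stood at 145 CPM in the control and 123 CPM in the K2-KO library, a log2 ratio of -0.24 (-0.27 to -0.21). It was lower in 5 of 7 clusters, but higher in clusters 1 and 2, at 0.14 (0.00 to 0.28) and 0.19 (0.08 to 0.29). Lama3 stood at 19.9 and 34.0 CPM, a log2 ratio of 0.77 (0.70 to 0.84), and was higher in 6 of 7 clusters. Of these, cluster 2 stood at 0.005 (-0.21 to 0.23) and cluster 3 at 0.22 (-0.20 to 0.62). There were 7.30 Lama5 UMIs per Lama3 UMI in the control and 3.62 in the K2-KO library. The β and γ chains among the members moved less: Lamb1 stood at 192 and 194 CPM, Lamc1 at 159 and 188 and Lamb3 at 30.8 and 35.3. Lamc1 was higher in 6 of 7 clusters, while Lamb1 was so in 5 and Lamb3 in 3.

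Col18a1 and Hspg2, the proteoglycans of the basement membrane (Hspg2 encodes perlecan), were higher by a small margin. Col18a1 stood at 137 and 176 CPM, a log2 ratio of 0.36 (0.33 to 0.39), and Hspg2 at 69.8 and 81.4 CPM, a log2 ratio of 0.22 (0.18 to 0.26). Each was higher in 6 of 7 clusters. In T cells, which should lack it, Col18a1 was found in 0.41% and 0.25% of cells thinned to 1000 UMIs, against 11.7% and 15.8% of tumour cells.

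The remaining members that were at least 1.5-fold higher in tumour cells were rare transcripts. Postn, which encodes periostin, stood at 1.96 CPM in the control and 5.32 CPM in the K2-KO library, with 21.1% and 20.4% of its UMIs in 1 cell. Without the collagen-rich cells its log2 ratio was 1.59 (1.31 to 1.88). Vcan, a large proteoglycan of loose matrix, stood at 0.72 and 1.56 CPM, and was higher in the 5 clusters with UMIs in both libraries. Lama4, the laminin chain of vessels, had 87 and 132 UMIs, and Col11a1, a fibrillar chain of cartilage, 27 and 53. Part of these UMIs lay in cells with gland markers. Col11a1 had 7 and 34 UMIs in cluster 7 and 19 and 12 in cluster 8, a group of 8 and 13 cells led by Krt5 and Acta2 among others. Postn had 32 and 48 UMIs in cluster 7 and 21 and 86 in cluster 8. Both clusters had more cells in the K2-KO library, and in tumour cells summed luminal gland markers stood at 253 and 411 CPM and basal ones at 19.3 and 40.1 CPM. With gland cells left out, the log2 ratio was 0.47 for Col11a1, 1.49 for Postn, 0.69 for Vcan and 0.68 for Lama4.

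Lox had the highest ratio, 1.81 (1.34 to 2.30), and the least support. Of its UMIs in tumour cells, 71.7% and 51.5% lay in 1 cell, and without the collagen-rich cells its ratio was 0.71 (-0.62 to 2.08). Fap, the surface protease of activated fibroblasts, had 315 and 405 UMIs, a log2 ratio of 0.81 (0.60 to 1.03), but within clusters it was higher in 2 of 6, and its mean over clusters was -0.47.

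Among the lower set, Col5a3 stood at 1.80 and 0.79 CPM, and at 1.14 and 0.16 CPM without the collagen-rich cells. Dcn, encoding decorin, stood at 9.40 and 10.96 CPM in tumour cells, and reached its highest level of any averaged cluster in cluster 7, at 218 and 259 CPM. Cluster 7 held 230 of its 1409 control UMIs and 736 of its 1203 K2-KO UMIs. Bgn, Fbn1, Thbs2, Loxl2, Col6a3 and Lrrc15 each stood under 5 CPM in tumour cells of both libraries, with log2 ratios between -0.40 (Lrrc15) and 0.47 (Bgn).

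Where the matrix UMIs lay shifted from tumour cells to Col1a1 cells. Tumour cells held 66.1% of all member UMIs in the control and 49.6% in the K2-KO library, and Col1a1 cells held 18.7% and 32.6%. Tumour cells also held fewer of the UMIs of all genes, 73.8% and 64.2%, and were 50.8% and 36.0% of the analysed cells. Col1a1 cells held more of the UMIs of all genes in the K2-KO library, 1.39% and 2.07%. The sort and the loading can set these shares, and their part in them was not tested. Within Col1a1 cells the summed level of the members hardly differed, at 59405 and 59157 CPM. For the fibrillar collagens tumour cells held 9.52% and 3.92%, and 6.06% and 1.82% without the collagen-rich cells, while Col1a1 cells held 78.3% and 83.2%. Sparc passed from an even share, 41.4% each in tumour and Col1a1 cells of the control, to 21.3% and 60.9% in the K2-KO library. Its level within Col1a1 cells was not higher there, with log2 ratios of -0.26 to -0.15 over the alternatives run. Col18a1 stayed with tumour cells, at 89.4% in both.

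**Figure D5:**
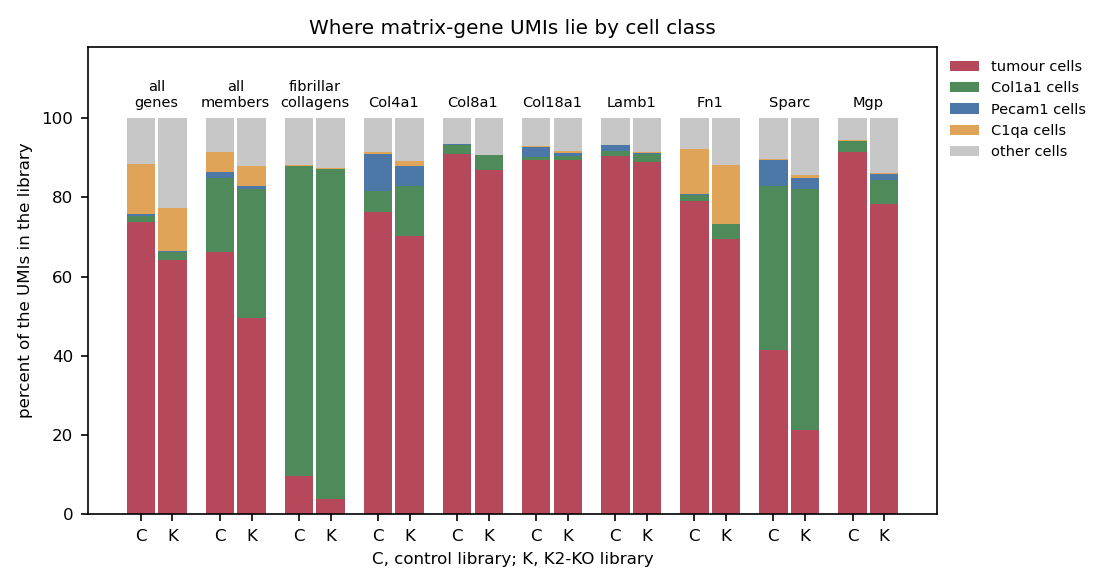
Percent of the UMIs in each library (vertical axis) that lay in tumour, Col1a1, Pecam1, C1qa and all other cells, for all genes, all 37 members, the 7 fibrillar collagens and 7 single members; C is the control and K the K2-KO library. The tumour part of all members is smaller in the K2-KO library (49.6% against 66.1%), and Col8a1, Col18a1 and Lamb1 lie mostly in tumour cells in both.

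In Col1a1 cells most members differed little between the libraries. Of the 35 members with at least 20 UMIs, 2 were at least 1.5-fold higher, against 12.8% of all 11274 genes tested there, and 5 were that much lower, against 6.98%. The collagens of types I and III were near each other in both: Col1a1, which defines the gate, stood at 7878 and 7570 CPM, Col1a2 at 8210 and 8550, and Col3a1 at 9095 and 10625. The members' median log2 ratio was 0.13, beside 0.06 for all genes.

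Lower in these cells were Col12a1, Col11a1 and Lrrc15, whose product marks myofibroblast-like fibroblasts of tumours. Col12a1 stood at 1627 CPM in control and 935 CPM in K2-KO Col1a1 cells, a log2 ratio of -0.80 (-0.86 to -0.73). Lrrc15 stood at 315 and 172 CPM, a log2 ratio of -0.87 (-1.02 to -0.72), and Col11a1 at 43.4 and 21.4 CPM, a log2 ratio of -1.02 (-1.45 to -0.59). These 3 stayed at least 1.5-fold lower under each of the alternatives run for these cells. Summed pericyte and smooth muscle markers were lower too, at 4784 and 2721 CPM, with Acta2 at 2149 and 1357 CPM; leaving out cells with Rgs5 or Myh11 UMIs kept the 3 genes past 1.5-fold.

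Mgp did not hold: it stood at 432 and 280 CPM, with 49.9% of the K2-KO UMIs in 1 cell, and its log2 ratio of -0.62 became 0.80 without cells with Rgs5 or Myh11 UMIs. Dcn and Lum, small proteoglycans of resting fibroblasts, were higher by less than 1.5-fold. Dcn stood at 1523 and 2232 CPM, a log2 ratio of 0.55 (0.50 to 0.60), and Lum at 361 and 522 CPM, a log2 ratio of 0.53 (0.42 to 0.64). Lamc1, at 124 and 218 CPM, was at least 1.5-fold higher under each alternative (0.74 to 0.91). Lama5, the other member past 1.5-fold, had 10 and 24 UMIs. Of the other basement membrane genes, 6 of 9 tested were at least 1.5-fold higher and 1 was that much lower, with a median of 1.00. Over all genes in these cells the shares were 12.8% and 6.98%. Among the higher ones were the laminin chain Lama2 at 59.3 and 164 CPM and the linker Nid2 at 13.1 and 26.2 CPM.

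Endothelium rests on a basement membrane, and Pecam1 cells held its genes at high levels. Col4a1 stood at 2671 and 2312 CPM there and Sparc at 4455 and 3987 CPM. Of 19 members with at least 20 UMIs, 6 were at least 1.5-fold higher and 6 lower, against 14.3% and 22.6% of the 7758 genes tested. The lower ones included Lama4, at 659 and 279 CPM, a log2 ratio of -1.24 (-1.56 to -0.93), Lamb1, at 414 and 135 CPM, Lamc1, at 476 and 296 CPM, and Tnc, with 30 control UMIs and 0 in K2-KO cells. With 56 and 30 cells, 1 cell could weigh heavily: in the K2-KO library it held 32.8% of the Col4a1 UMIs and 49.5% of those of Lamc1. Without the top cell of each gene, 2 of the 12 members left were that much higher.

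In C1qa cells Fn1 was made as strongly as in tumour cells and did not differ by much between the libraries. It stood at 1636 CPM in the control and 1609 CPM in the K2-KO library, a log2 ratio of -0.02 (-0.05 to 0.00), and made up 92.3% and 89.2% of the member UMIs. Fap, at 18.2 and 38.6 CPM, and Vcan, at 5.17 and 16.4 CPM, were higher, with log2 ratios of 1.09 (0.92 to 1.26) and 1.66 (1.36 to 1.97). Neither rested on 1 cell, which held at most 11.9% of the UMIs. Lamc1 was lower, at 47.8 and 29.5 CPM. Of 31 members with at least 20 UMIs, 16 were at least 1.5-fold higher, against 10.1% of 13973 genes, and 6 lower, against 4.12%. Much of that count rested on 3 collagen-rich barcodes, 1 in the control and 2 in the K2-KO library. Without them 4 of 27 were higher and 7 lower, and with called doublets kept 5 of 36 were higher and 24 lower.

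Lamc1 was also found in T cells, at the level of tumour cells. It stood at 164 and 186 CPM in Cd3e cells without collagen-rich barcodes, from 712 and 1494 UMIs, against 159 and 189 CPM in tumour cells treated alike. A Lamc1 UMI was seen in 15.4% and 11.5% of Cd3e cells thinned to 1000 UMIs, and in 14.1% and 15.8% of tumour cells. The chains it joins were low there, with Lamb1 at 2.07 and 1.62 CPM and Lama5 at 5.28 and 6.11 CPM, against 192 and 195 CPM and 145 and 123 CPM in tumour cells.

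The other matrix genes of tumour cells were taken from lists by name, and the extremes of each list are given as log2 ratios. Their counts stand beside the 19.0% higher and 6.81% lower among all genes, and the shares higher of the collagen-processing genes (20.8%) and the receptors (22.7%) lie near it. Of 20 other collagens tested, 9 passed 1.5-fold upward and 2 downward. The ends were Col9a1 at 1.90 and Col25a1 at 1.68, both under 1 CPM, and Col27a1 at -2.60 and Col7a1, the anchoring fibril collagen, at -0.25. Of 24 collagen-processing genes 5 passed upward and 2 downward, the latter being P3h4 at -1.23 and the prolyl hydroxylase P4ha2 at -0.77, with Fkbp10 at 1.18 and P4ha3 at 1.06 at the top. Of 10 other basement membrane genes 3 were higher by that fold and 1, Smoc1, lower, at 3.65 and 1.81 CPM. Npnt, which encodes the integrin ligand nephronectin, stood at 189 and 143 CPM.

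Glycoproteins held the widest range. Of 33 others 8 were higher and 12 lower. Ibsp, which encodes the bone sialoprotein that binds integrins, had the lowest ratio at -3.51, from 285 to 24.9 CPM, and Ccn5 stood at -2.60, from 22.1 to 3.63 CPM. Fbn2, a fibrillin, was at the other end at 2.51 and Cthrc1 at 1.99, both under 4 CPM. Of 16 other proteoglycans 3 were higher and 7 lower, from the glypicans Gpc4 at -2.51 to Gpc6 at 2.20. Of 5 other crosslinking genes Loxl1 alone passed, at 0.77 and 2.11 CPM.

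Of 22 matrix receptors 5 were higher and 2 lower. The lower ones were the integrin chains Itgb3, at 5.50 and 1.22 CPM, and Itgb5, at 123 and 54.3 CPM, both partners of the αv chain. Itgb8 was the highest, at 0.32 and 1.09 CPM. These lists come from the same libraries as the members, and each is described by its counts alone.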

How the data were processed

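Gene expression was measured by 10x single-cell RNA sequencing in 2 libraries, 1 control and 1 K2-KO. The values are counts of UMIs per gene and cell barcode in 1 deposited matrix, made with Cell Ranger 2.1.1 on mm10 per the submitters' processing notes, while the matrix header names version 6.0.1. Cell calling preceded deposit. Other steps are not given in the sources used here. The barcode suffix was taken as the library by its number alone.

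The 37 members and all gene lists were chosen with earlier results of these data known. Cells were kept with 500 or more UMIs, 200 or more genes and a mitochondrial share of 20% or less, and doublets called by Scrublet in scanpy 1.11.5 were removed in each library. A tumour cell had at least 5 UMIs of Epcam, Krt8 and Krt18 together per 10000 UMIs and no Ptprc UMI. The other classes had fewer of these epithelial UMIs. Col1a1 cells had at least 5 Col1a1 UMIs per 10000, at least 3 in number and no Ptprc UMI. Pecam1 cells had at least 2 Pecam1 UMIs per 10000, at least 2 in number and no Ptprc UMI. C1qa cells had at least 5 C1qa UMIs per 10000 and at least 3 in number. Cd3e cells had at least 1 UMI each of Cd3e and Ptprc. A cell that passed 2 of the Col1a1, Pecam1 and C1qa gates was in none of them.

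UMIs were summed over the cells of a class and library and divided by the class total (CPM). Intervals are exact (Poisson, conditional binomial for ratios, Clopper-Pearson for shares), at 95%. Genes with at least 20 UMIs over both libraries in a class entered counts at 1.5-fold, and a gene at 0 in 1 library was set at a limit of 3 counts there. Tumour cells were clustered by Leiden (resolution 0.5, 30 principal components, 2000 variable genes) with the members left out. Of these clusters, 7 of 9 had at least 20 cells in each library. Every member was to be named, and of each further list the 2 genes with the highest and the 2 with the lowest tumour-cell ratio among those with at least 100 UMIs, with Fermt2. Some of these genes are not reported here. Collagen-rich cells (10 or more UMIs of Col1a1, Col1a2 and Col3a1) were defined after the data had been seen. The ratio and interval code was tested on simulated data. Numpy 2.4.6, scipy 1.17.1, pandas 2.3.3, igraph 0.11.9 and matplotlib 3.10.9 were used in python 3.11.15. Promoter windows were those of the RefSeq table on GRCm38.p6, and 24 of 37 members matched.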

Additional observations from a re-analysis of the deposited data

Results flagged for a closer look

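Some members moved in opposite directions in tumour cells and in a stromal class. These differences between classes were not tested.

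Most of them concern C1qa cells, where Col5a1 had a log2 ratio of 0.76, Col5a3 of 2.80, Col6a1 of 1.28, Col6a2 of 2.53 and Sparc of 1.58, while in tumour cells each was negative (-1.13, -1.18, -0.67, -1.06 and -0.89). In the K2-KO library 1 C1qa cell held 47.1% of the Col5a1, 73.3% of the Col5a3, 70.7% of the Col6a1, 79.3% of the Col6a2 and 73.2% of the Sparc UMIs. Without the 3 collagen-rich C1qa cells the ratios were -0.91, 1.48, -0.52, -0.03 and -0.35. Col5a3 alone of these 5 kept its sign, but from 4 and 8 UMIs, with an interval of -0.42 to 3.66. The intervals of all 5 ran from a negative to a positive value, so none of these signs was settled. Tnc had a ratio of -1.81 in C1qa cells against 0.60 in tumour cells, with 60.3% of its control UMIs in 1 cell, and -1.80 without the collagen-rich cells.

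Col11a1 had a log2 ratio of -1.02 in Col1a1 cells against 1.42 in tumour cells, where it had 27 and 53 UMIs. Lama4 had a ratio of -1.24 in Pecam1 cells against 1.05 in tumour cells. Mgp had a ratio of 8.56 in Pecam1 cells, from 2 and 253 UMIs, against -1.20 in tumour cells, and 97.6% of the 253 lay in 1 cell.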

How the results depend on the processing

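Each group is 1 library, so no alternative has a test and no library could be left out. No paired analysis was possible because each group has 1 library. In tumour cells 21 of 37 members kept the sign of their ratio under every alternative run, and in Col1a1 cells 28 of 35. At least 1.5-fold throughout were, in tumour cells, Postn, Lama4, Lox and Vcan (higher) and Col5a1 (lower). Without the collagen-rich cells, Lox had 10 and 12 UMIs and an interval of -0.62 to 2.08. Lama4 was then higher in 1 of the 3 clusters with UMIs in both libraries, and 1 cell held 33.3% of its control UMIs. In Col1a1 cells Lamc1 (higher) and Col11a1, Col12a1 and Lrrc15 (lower) were at least 1.5-fold throughout. The cause of the changes below was not tested. Counts are of members higher or lower, medians are of log2 ratios, and shares are percentages of UMIs in tumour cells, in the order all members control, fibrillar control, all members K2-KO, fibrillar K2-KO.

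In tumour cells, with called doublets kept, the median was -0.054, a change of sign, and the first 3 shares were 62.9%, 10.2% and 48.0%. With the gate at 10 per 10000, 16 members were higher, the median was 0.25 and the shares were 64.4%, 7.18%, 48.0% and 3.81%. Cells with no stromal UMI gave a median of 0.34 and shares of 29.2%, 2.69%, 23.7% and 0.95%. The mean over clusters gave 13 higher, 3 lower, Mgp at 0.045 and Fap at -0.087, both with the sign turned. Without collagen-rich cells as well, 5 were lower, Mgp was at 0.065 and Fap at -0.47. Pooled without these cells, the median was 0.021 and the shares were 65.2%, 6.06%, 48.5% and 1.82%. Centring on all genes gave a median of 0.0016. With each cell weighted alike, Col5a3 turned to 0.068. At 2-fold, 5 were higher and 4 lower.

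In Col1a1 cells the median was 0.015 with each cell weighted alike and 0.0050 with the gate on Pdgfra and Pdgfrb, where Lama5 turned to -1.04. At 2-fold, 0 were higher and 1 lower. Without cells with Rgs5 or Myh11 UMIs, 5 were higher and Mgp turned to 0.80. Without each gene's top cell, at 100 UMIs, and with the epithelial sum under 1 per 10000, 1 was higher.

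In Pecam1 cells the median was -0.42 with each cell weighted alike. Without each gene's top cell, 2 of 12 members were higher and the median was -0.72. At 100 UMIs, 1 of 10 was higher and 3 lower, with a median of -0.37.

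In C1qa cells, with called doublets kept, 5 were higher and 24 lower, with a median of -0.93. Without collagen-rich cells 4 were higher and the median was -0.35. Each cell weighted alike gave a median of 0.36. Without each gene's top cell 8 of 26 were higher, with a median of 0.0025. At 100 UMIs, 10 of 16 were higher and 2 lower, with a median of 1.16. Members with few UMIs in a class are limited by depth.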
